A study of Mus musculus with 2 samples.

Results

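The genes described here are 52 genes of the cell cycle machinery and of replication licensing, out of 22359 protein-coding genes in the annotation. They were listed by name, under a rule that uses no measured value, although the list was drawn up with earlier results of these data known. They comprise 12 subunits of the anaphase-promoting complex (APC/C), 2 of its coactivators, 8 cyclins, 4 cyclin-dependent kinases (CDKs), 3 CDK inhibitors, 3 Cdc25 phosphatases, 6 E2F factors, 3 pocket proteins, 7 MCM proteins and 4 origin loading factors. The series asked where the zinc finger protein Zfp322a sits in the genome of mouse embryonic stem (mES) cells, by chromatin immunoprecipitation and sequencing (ChIP-seq). It holds 2 libraries from E14 cells, a mouse ES cell line that the labels give a C57BL/6 background, grown with serum and LIF: the Zfp322a ChIP, made with an anti-ZNF322 antibody (sc-102205), and the control, made with rabbit IgG. Both libraries come from untreated cells of the same line, and with 1 library per antibody no difference has a replicate check and no p-value is given. The libraries hold DNA and not RNA, so the cell type could not be checked against the expression of marker genes.

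Sequencing gave 5187475 mapped reads with the Zfp322a antibody and 4843481 with IgG. A mapping quality of at least 25 was met by 80.0% and 80.1% of them, which left 4151151 and 3877802 reads. Each gene was given the reads whose middle fell within 1000 bp on either side of the start site (TSS) of any of its protein-coding transcripts. The fold is the ratio of Zfp322a to IgG reads, each divided by its library total, and its 95% interval is the exact binomial (Clopper-Pearson) interval, which covers counting error only. At least 10 reads of both libraries together were required, and 16630 of all genes and 52 of the 52 cell cycle genes passed. A site is a stretch where the height of Zfp322a reads, extended to 300 bp, reached at least 9 and at least 3 times the greatest IgG height in the same stretch. Heights are given below with the Zfp322a value first.

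A dividing cell licenses its origins of replication before S phase, when the origin recognition complex, Cdc6 and Cdt1 load the MCM helicase on DNA. Cyclins paired with CDKs then drive S phase and mitosis, held back by CDK inhibitors and released by Cdc25 phosphatases, which remove inhibitory phosphates from CDKs. The pocket proteins, of which Rb1 is the founding member, bind E2F transcription factors and restrain the genes of S phase. The APC/C is a ubiquitin ligase that marks cyclin B and securin for destruction and so ends mitosis. Mouse ES cells are known for a short G1 phase.

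The sequences below come from genes that are set beside each other in the text, in mm9 and read along the gene. They are the 200 bases at the summit of *Cdc27*, the gene of highest fold, and of the site before *Cdkn1b*, and the 250 bases before the most upstream TSS of *Anapc4* and *Cdc16* (subunits of the same complex at opposite ends of the range), of *Ccnb2* and *Cdk1* (partners in mitosis) and of *Mcm6*. Capitals mark matches on either strand to the following words: the E2F-type word TTCCCGC, its variant TTCGCGC, its variant TTGGCGC and its variant TTGCCGC, the CHR word TTTGAA, the word CCAAT (whose complement reads ATTGG) and motif 1 of the study.
Cdc27 summit, chr11:104411432-104411631, minus strand, intron: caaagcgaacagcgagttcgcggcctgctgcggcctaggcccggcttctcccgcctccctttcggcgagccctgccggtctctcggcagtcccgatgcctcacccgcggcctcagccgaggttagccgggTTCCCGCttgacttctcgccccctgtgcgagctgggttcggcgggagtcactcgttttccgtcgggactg
Cdkn1b summit, chr6:134869875-134870074, plus strand, outside protein-coding transcripts: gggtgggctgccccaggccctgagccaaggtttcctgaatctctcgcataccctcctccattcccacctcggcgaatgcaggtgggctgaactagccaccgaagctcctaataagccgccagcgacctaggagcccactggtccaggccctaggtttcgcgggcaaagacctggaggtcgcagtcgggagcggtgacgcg
Anapc4 upstream, chr5:53225004-53225253, plus strand: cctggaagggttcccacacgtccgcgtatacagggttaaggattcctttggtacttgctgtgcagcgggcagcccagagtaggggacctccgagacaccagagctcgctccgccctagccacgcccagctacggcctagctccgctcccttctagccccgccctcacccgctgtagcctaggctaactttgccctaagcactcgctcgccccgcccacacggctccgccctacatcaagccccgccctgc
Cdc16 upstream, chr8:13757426-13757675, plus strand: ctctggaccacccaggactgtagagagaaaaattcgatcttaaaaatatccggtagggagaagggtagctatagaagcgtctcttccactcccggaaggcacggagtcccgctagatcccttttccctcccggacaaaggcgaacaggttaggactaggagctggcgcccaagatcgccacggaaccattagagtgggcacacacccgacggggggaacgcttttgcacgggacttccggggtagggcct
Ccnb2 upstream, chr9:70269362-70269611, minus strand: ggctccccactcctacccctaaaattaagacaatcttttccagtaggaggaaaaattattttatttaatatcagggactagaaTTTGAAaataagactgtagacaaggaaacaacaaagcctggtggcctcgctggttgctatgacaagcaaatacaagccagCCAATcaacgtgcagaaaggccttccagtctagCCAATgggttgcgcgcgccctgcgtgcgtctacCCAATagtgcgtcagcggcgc
Cdk1 upstream, chr10:68815687-68815936, minus strand: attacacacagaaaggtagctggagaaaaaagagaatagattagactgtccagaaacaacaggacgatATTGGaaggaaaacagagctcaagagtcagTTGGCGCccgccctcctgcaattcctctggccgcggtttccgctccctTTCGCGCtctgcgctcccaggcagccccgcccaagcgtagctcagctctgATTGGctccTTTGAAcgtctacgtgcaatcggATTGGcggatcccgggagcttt
Mcm6 upstream, chr1:130256234-130256483, minus strand: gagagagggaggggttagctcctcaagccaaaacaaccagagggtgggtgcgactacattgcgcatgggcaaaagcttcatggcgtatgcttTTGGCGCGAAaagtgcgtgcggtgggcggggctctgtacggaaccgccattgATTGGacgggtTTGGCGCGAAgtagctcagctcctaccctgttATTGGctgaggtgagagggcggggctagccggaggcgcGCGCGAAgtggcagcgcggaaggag

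The stretch before *Mcm6* held 5 E2F-type matches and 2 CCAAT matches, and each of its runs of 10 capitals is a pair of E2F-type words that overlap on opposite strands. The stretch before *Cdk1* held 2 E2F-type words, 1 CHR word and 3 CCAAT matches, and that before *Ccnb2* held 1 CHR word and 3 CCAAT matches. *Anapc4* and *Cdc16*, whose folds lay far apart, had no match in these stretches, and the *Cdc27* summit had 1 E2F-type word. A match is a description of the letters and not of a bound factor.

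Over the 52 genes together there were 1392 Zfp322a reads and 816 IgG reads, a fold of 1.59 (95% interval 1.46 to 1.74). The median fold was 1.55, with an interval for the median of 1.32 to 1.79 from the order of the 52 values, while the median over all 16630 genes evaluated was 1.35. The fold was above 1 at 46 of the 52 genes and above the median of all genes at 33. That median itself lay above 1, so a fold above 1 was common among all genes and does not set these genes apart. Single genes held between 9 and 58 Zfp322a reads and between 4 and 35 IgG reads, so most intervals were wide. At 15 genes the interval lay above 1, against 16.6% of all genes evaluated, and at 0 genes did it lie below 1.

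A fold of at least 2 was reached by 13 of the 52 genes (25%), beside 20.6% of all genes evaluated, so the share lay near the background. A fold of 0.5 or less was found at 1 gene, *Cdc16*, beside 2.83% of all genes. A site lay at the TSS of 14 of the 52 genes (26.9%), beside 12.0% of all protein-coding genes and 16.2% of those evaluated. Of the regions deposited by the authors for Zfp322a, 3 overlapped the TSS windows of these genes, at *Cdc27*, *Anapc4* and *Cdc26*, beside 3.24% of all genes. The deposited list holds 754 distinct regions, fewer than the binding sites the study describes, so 3 is a count for that list alone. The authors called those regions on the same reads, so they are not a separate measurement.

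**Figure D1:**
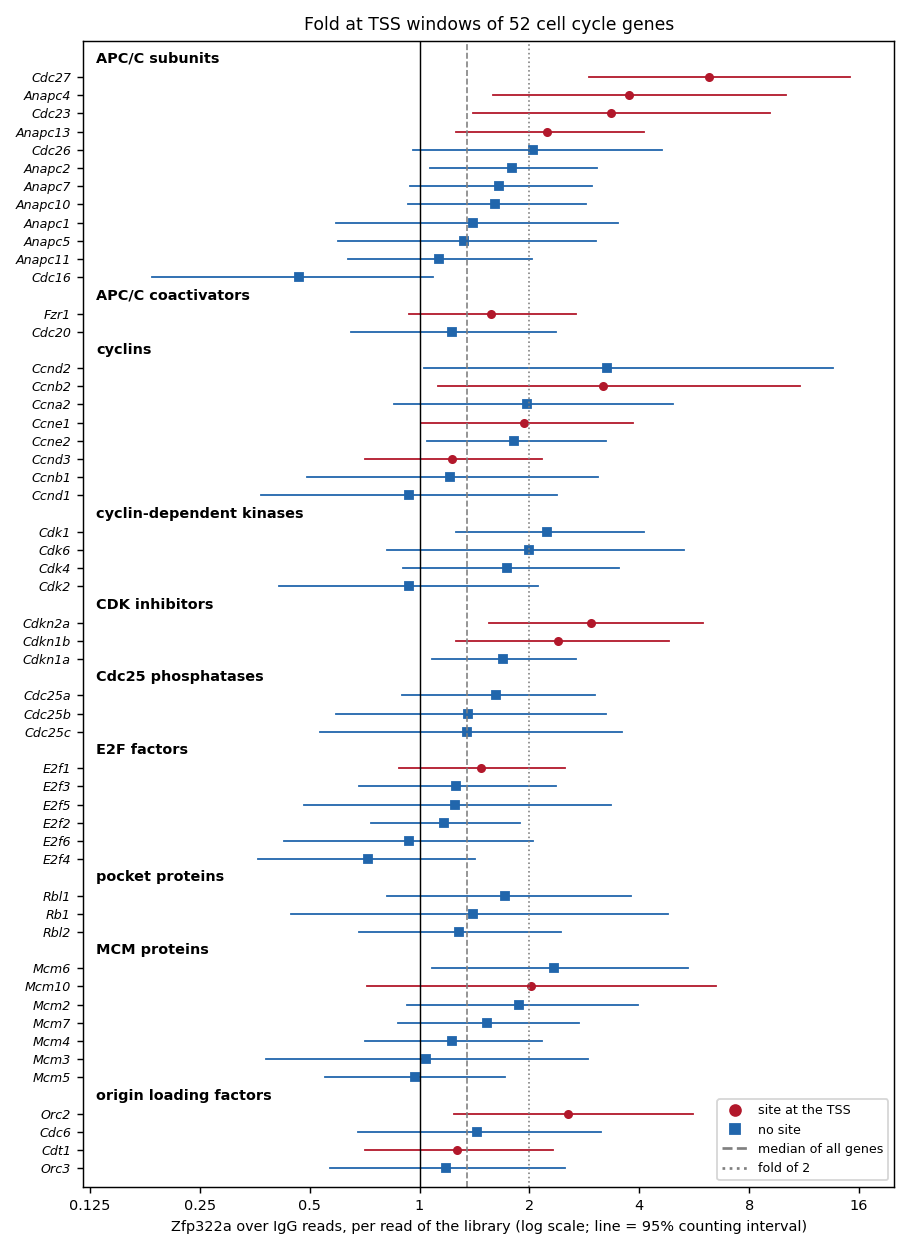
Fold of Zfp322a over IgG reads at the TSS windows of the 52 genes, grouped by role, on a log axis, with lines for the 95% counting interval, round red points for genes with a site and square blue points for genes without. The values run from 0.467 at *Cdc16* to 6.19 at *Cdc27*, and both are APC/C subunits.

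The APC/C subunits had the widest range of any group. Together they held 364 Zfp322a and 182 IgG reads, a fold of 1.87 (1.56 to 2.24). A fold of 2 was reached by 5 of the 12, beside 20.6% of all genes evaluated. *Cdc27*, a scaffold subunit with tetratricopeptide repeats (TPR) that contacts the coactivators, had 53 Zfp322a reads and 8 IgG reads. Its fold of 6.19 (2.92 to 15.1) stood at the 99.4th percentile of all genes evaluated. The site at chr11:104411296-104412148 rose to a height of 29 reads, against 2 for IgG, with its summit in an intron, 174 bp after the nearest TSS. There were 18 forward and 18 reverse Zfp322a reads around that summit. In genome coordinates, the median of the reverse reads came after that of the forward reads, at 112 bp and -78 bp from the summit. The next height among the 52 genes was 20, at *Anapc13*.

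*Anapc4*, a scaffold subunit of the complex, had 28 Zfp322a and 7 IgG reads and a fold of 3.74 (1.59 to 10.1). Its site, chr5:53225089-53225615, was 13 reads high against 2 for IgG, with the summit in the 5′ UTR. *Anapc13*, a small subunit that steadies the complex, had 43 and 18 reads and a fold of 2.23 (1.26 to 4.11). Its site at chr9:102528029-102528631 rose to 20 reads against 3, and its summit lay at -243 bp from the TSS, over the 5′ UTR and an intron of *Cep63*, which starts on the other strand 172 bp away. *Cdc26*, another small subunit, had 24 and 11 reads and a fold of 2.04 with an interval that held 1 (0.961 to 4.61). The tallest stretch there lay at -248 bp from its TSS, over a coding exon of *Prpf4*, which starts on the other strand 155 bp away, and it missed the site rule with heights of 11 and 4.

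The regions at *Cdc27*, *Anapc4* and *Cdc26* are loci for which the study made qPCR primers, with those at *Cdc27* and *Cdc26* named for the neighbours *Myl4* and *Prpf4*, so these were picked by the authors with the reads in view. The primers are shown because they place the tested stretch within the reads. Between the *Myl4* primers, chr11:104411559-104411673, lay 11 Zfp322a reads and 1 IgG read. Between the *Anapc4* primers, chr5:53225281-53225452, lay 10 and 1, and between the *Prpf4* primers, chr4:62069814-62069981, lay 7 and 1.
Myl4 forward: agggctcgccgaaaggga
Myl4 reverse: atgctagcccctgctccgag
Anapc4 forward: tgctgtgccactcacttcctc
Anapc4 reverse: cacaaagctctggcacaaagc
Prpf4 forward: gccagtgacgcacttccact
Prpf4 reverse: ccggcctctctagggcag

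Counts within a primer pair are small, and all 3 stretches held a single IgG read. The remaining APC/C subunits spread on both sides of the median of all genes. *Anapc2* and *Anapc11*, which form the catalytic cullin and RING core, had folds of 1.79 (1.07 to 3.07; 46 and 24 reads) and 1.13 (0.635 to 2.03; 29 and 24 reads). *Anapc10*, which helps to bind substrates, had 38 and 22 reads and a fold of 1.61 (0.930 to 2.86). *Anapc7*, another TPR subunit, had 37 and 21 reads, a fold of 1.65 (0.939 to 2.96) and no site. Its upstream start sites held 29 and 12 reads, a fold of 2.26 (1.12 to 4.86). A downstream one held 8 and 9 reads, a fold of 0.830 (0.279 to 2.42), and these intervals overlap. *Anapc1* and *Anapc5*, both of the scaffold, had folds of 1.4 and 1.32 with intervals that held 1.

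*Cdc16*, a further TPR subunit, was the lowest of the 52 genes, with 9 Zfp322a reads, 18 IgG reads and a fold of 0.467 (0.185 to 1.09). Its Zfp322a height did not pass 4 reads, while the IgG height reached 5. *Cdc16* lies on chromosome 8, where the reads farther than 10 kb from any TSS were themselves fewer in the Zfp322a library, at a fold of 0.722 (0.717 to 0.727). Scaled to that chromosome, *Cdc16* stood at 0.647. The coactivators lay closer to equal coverage, with *Fzr1* (Cdh1) at 42 and 25 reads and a fold of 1.57 (0.935 to 2.69) and *Cdc20* at 25 and 19 reads and 1.23 (0.650 to 2.36). *Fzr1* had a site at chr10:80841470-80841735, 9 reads high against 3, with the summit at -432 bp from its TSS.

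**Figure D2:**
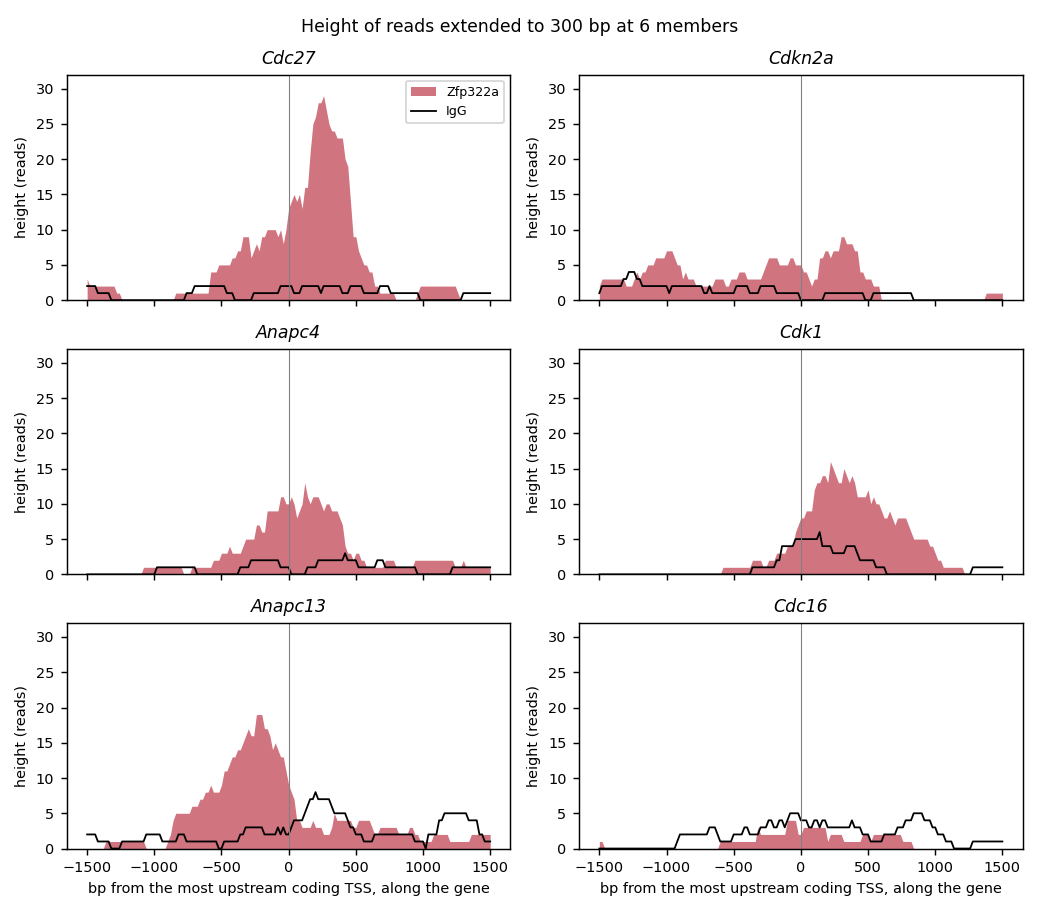
Height of reads extended to 300 bp, in reads, against the distance in bp from the most upstream coding TSS for 6 genes, with Zfp322a filled in red and IgG as a black line. The Zfp322a height peaks after the TSS at *Cdc27*, *Anapc4* and *Cdk1* and before it at *Anapc13*, and at *Cdc16* the IgG line is as high as the Zfp322a area.

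Among the cyclins, the pooled fold was 1.67 (1.30 to 2.16). Of the 8, 2 reached a fold of 2, beside 20.6% of all genes evaluated. *Ccnd2*, a D-type cyclin of G1 phase, had 14 Zfp322a and 4 IgG reads and a fold of 3.27 (1.03 to 13.6), but its height stayed at 6 reads and it had no site. *Ccnb2*, a mitotic cyclin, had 17 and 5 reads and a fold of 3.18 (1.12 to 11), with a site at chr9:70269005-70269104 of 9 reads against 1, in an intron. These 2 cyclins had few IgG reads, so their intervals reach from near 1 to over 10. *Ccne1* and *Ccne2*, the E-type cyclins of the entry into S phase, had 31 and 15 reads and 41 and 21 reads, with folds of 1.93 (1.01 to 3.85) and 1.82 (1.05 to 3.25). *Ccne1* carried a site in its 5′ UTR, chr7:38892364-38892562, of 11 reads against 3.

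*Ccna2*, the cyclin of S phase and G2, had 19 and 9 reads and a fold of 1.97 (0.850 to 4.95). *Ccnd3*, a further D-type cyclin, had 33 and 25 reads and a fold of 1.23 (0.711 to 2.16). Its upstream window had 24 and 13 reads, a fold of 1.72 (0.844 to 3.69). A site of 12 reads against 4 lay there, at chr17:47641951-47642123. The downstream window had 9 and 12 reads, a fold of 0.701 (0.261 to 1.81), and these intervals overlap. *Ccnb1*, the other mitotic cyclin, stood at 1.21 (0.492 to 3.09) from 13 and 10 reads. *Ccnd1* had 11 reads in each library and a fold of 0.934 (0.367 to 2.38). The D-type cyclins thus ran from 0.934 to 3.27, with intervals that overlap.

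The CDKs had a pooled fold of 1.73 (1.24 to 2.45). *Cdk1*, the kinase of mitosis, had 43 Zfp322a and 18 IgG reads in all, and its start sites parted: 38 and 10 reads at the upstream ones, chr10:68814651-68816686, a fold of 3.55 (1.74 to 7.99), and 5 and 8 at the downstream one, a fold of 0.584 (0.150 to 2.02). Over both, the fold was 2.23 (1.26 to 4.11), and *Cdk1* had no site, since its height of 16 reads met an IgG height of 6 in the same window. *Cdk6* and *Cdk4*, the kinases of D-type cyclins, had 17 and 8 reads and 28 and 15 reads, with folds of 1.99 (0.812 to 5.31) and 1.74 (0.900 to 3.51). *Cdk2*, the partner of E-type cyclins, had 14 reads in each library and a fold of 0.934 (0.413 to 2.11).

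All 3 CDK inhibitors described here had an interval above 1, beside 16.6% of all genes evaluated. Their pooled fold, from 135 and 59 reads, was 2.14 (1.56 to 2.95). Scaled to the median fold of all genes, the lower limits of *Cdkn1b* and *Cdkn1a* fell to 0.940 and 0.804, while that of *Cdkn2a* was 1.15. *Cdkn2a*, which encodes p16Ink4a and p19Arf from separate promoters, had 41 and 13 reads and a fold of 2.95 (1.55 to 5.99). At its upstream window, chr4:88939523-88941557, from which the Arf transcript starts, it had 26 and 6 reads and a fold of 4.05 (1.63 to 12.0), and at the downstream one 15 and 7 reads and 2.0 (0.768 to 5.80). The site, chr4:88940220-88940259, lay in the upstream window and was 9 reads high against 1. *Cdkn1b* (p27) had 36 and 14 reads and a fold of 2.40 (1.26 to 4.82), with a site of 11 reads against 3 at chr6:134869866-134870123, whose summit at -444 bp from the TSS is shown above. *Cdkn1a* (p21) had 58 and 32 reads and a fold of 1.69 (1.08 to 2.69), and its 3 windows, from the most upstream on, gave 3.74 (1.21 to 15.4; 16 and 4 reads), 1.59 (0.847 to 3.09; 29 and 17 reads) and 1.10 (0.456 to 2.72; 13 and 11 reads). The group is 3 genes, and no test sets it apart from the others. Further CDK inhibitors, in the wider list described below, ran from 0.934 (0.493 to 1.77) to 2.37 (1.27 to 4.63).

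The Cdc25 phosphatases had folds of 1.62 (0.896 to 3.02) for *Cdc25a*, 1.36 (0.592 to 3.24) for *Cdc25b* and 1.35 (0.534 to 3.58) for *Cdc25c*, each with an interval that held 1 and none with a site. The 3 pocket protein genes were alike in this, with *Rbl1* at 1.71 (22 and 12 reads), *Rb1* at 1.4 (9 and 6 reads) and *Rbl2* at 1.28 (26 and 19 reads). *Rb1* had the fewest reads of these groups, 15 over both libraries.

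The E2F factors had the lowest pooled fold of the groups, 1.15 (0.902 to 1.46) from 156 and 127 reads. A fold of 2 was reached by 0 of the 6, beside 20.6% of all genes evaluated. *E2f1*, an activator of S phase genes, was the highest at 1.47 (0.880 to 2.51; 41 and 26 reads), with a site in an intron at chr2:154394608-154394704, 11 reads high against 3. *E2f2* and *E2f3*, activators too, had 44 and 35 reads and 27 and 20 reads, with folds of 1.17 and 1.26. *E2f5*, a partner of pocket proteins, stood at 1.25 (12 and 9 reads), and *E2f6*, a repressor that acts without them, at 0.934 (15 reads in each library). *E2f4*, which acts mainly as a repressor with pocket proteins, had 17 and 22 reads and a fold of 0.722 (0.360 to 1.42). It lies on chromosome 8, and scaled to that chromosome it stood at 1.0. Its direction turned with the window, to 1.12 within 500 bp of the TSS and 1.4 from 1000 bp before to 100 bp after it.

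**Figure D3:**
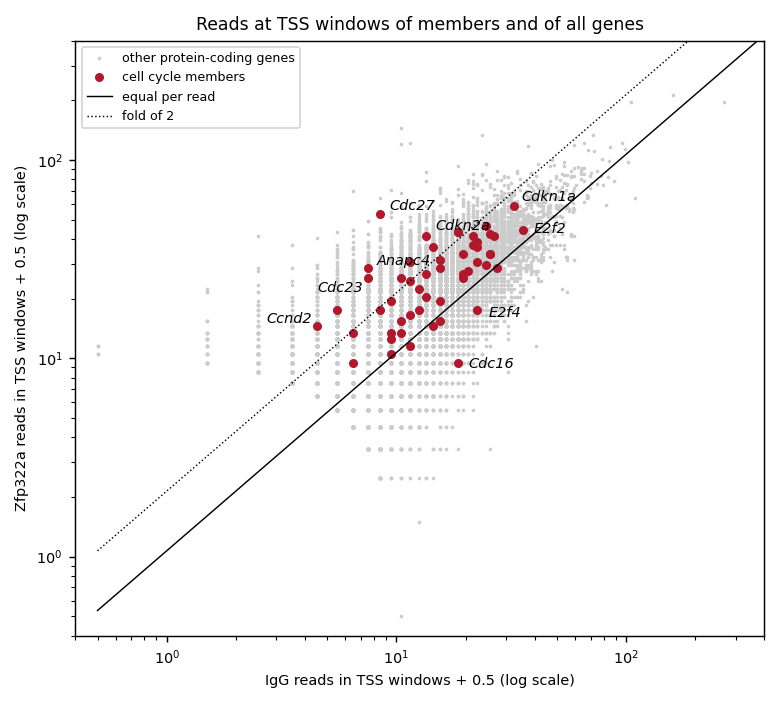
Zfp322a against IgG reads in the TSS windows, each with 0.5 added, on log axes, for the 52 genes (red) over all other genes evaluated (grey), with lines for equal reads per library read and for a fold of 2. *Cdc27* stands farthest above the line of equal coverage and *Cdc16* farthest below it among the red points.

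The MCM genes had a pooled fold of 1.43 (1.12 to 1.83) from 171 and 112 reads. *Mcm6*, a helicase subunit, was the highest, with 25 and 10 reads and a fold of 2.34 (1.08 to 5.45), and it had no site, since its height of 11 met an IgG height of 6 in the same window. *Mcm10*, which acts after helicase loading, had 13 and 6 reads, a fold of 2.02 (0.718 to 6.49) and a site of 9 reads against 3 at chr2:4933838-4933863, next to its TSS. The other helicase subunits had folds of 1.87 for *Mcm2* (26 and 13 reads), 1.53 for *Mcm7* (36 and 22), 1.23 for *Mcm4* (33 and 25), 1.04 for *Mcm3* (10 and 9) and 0.969 for *Mcm5* (28 and 27), all with intervals that held 1. *Mcm5* lies on chromosome 8. The 6 helicase subunits thus ran from 0.969 to 2.34, although they form a single complex.

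Of the origin loading factors, *Orc2*, a subunit of the origin recognition complex, had 30 and 11 reads and a fold of 2.55 (1.24 to 5.63). Its upstream window had 24 and 7 reads and a fold of 3.20 (1.34 to 8.80), and its site, chr1:58561628-58561632 in the 5′ UTR, was 9 reads high against 2. *Cdt1*, which loads MCM proteins, had 30 and 22 reads and a fold of 1.27 (0.711 to 2.32), and a site of 9 reads against 3 at chr8:125091566-125091586, with the summit at -339 bp from its TSS. *Cdc6* and *Orc3* had folds of 1.44 (20 and 13 reads) and 1.18 (19 and 15 reads). The *Orc3* TSS lies 13 bp from that of *Rars2* on the other strand.

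*Cdc23*, the TPR subunit of the APC/C not yet described, had 25 and 7 reads and a fold of 3.34 (1.4 to 9.14). Its site at chr18:34810927-34811055 was 9 reads high against 2, over a coding exon and an intron. Its forward and reverse reads were not ordered as at *Cdc27*. In genome coordinates, the reverse median lay at 31 bp and the forward median at 94 bp from the summit. The far reads of that chromosome had a fold of 0.813 (0.805 to 0.820).

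The 14 sites ranged from 9 to 29 reads in height with a median of 10, and 7 stood at the minimum of 9 and 10 at 11 or less. IgG heights at them ran from 1 to 4. The summits lay between -444 and 509 bp from a TSS, 9 of the 14 after it. At 12 of the 14 the reverse reads lay after the forward reads in genome coordinates, with a median gap of 132 bp. A summit is the highest point of reads extended to 300 bp from their 5′ ends, which by itself favours this order. The order is therefore no separate check of a site. Most of these sites are thus near the threshold that defines them, and *Cdc27*, *Anapc13* and *Anapc4* are the tallest. Which genes had a site changed with the rule. With reads extended to 200 bp, 11 genes had one, beside 9.29% of all genes. *Ccnb2*, *Cdc23*, *Cdkn1b*, *Cdkn2a*, *Cdt1*, *Fzr1*, *Mcm10* and *Orc2* lost theirs, and *Cdc26*, *Cdc6*, *Cdk1*, *Cdk4* and *Orc3* gained one. With IgG heights scaled by the library totals, 10 genes had one (9.84% of all genes), without *Ccnd3*, *Cdt1*, *Fzr1* and *Mcm10*.

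The ratio of the libraries was compared over spans around the TSS. In the 500 bp before the TSS the 52 genes had 348 and 173 reads, a fold of 1.88 (1.56 to 2.27), and in the 500 bp after it 473 and 254 reads, a fold of 1.74 (1.49 to 2.03). All genes evaluated had 1.53 (1.51 to 1.54) and 1.54 (1.53 to 1.56) there. From 2000 to 1000 bp before the TSS the fold was 1.04 (0.823 to 1.31) for the 52 genes and 1.12 (1.10 to 1.13) for all genes, and from 1000 to 2000 bp after it 1.25 (1.03 to 1.53) and 1.15 (1.13 to 1.16). Over these spans the fold of the 52 genes was greatest within 500 bp of the TSS. Single bins of 100 bp varied more, and the largest ratios, 2.68 (1.46 to 5.19; 43 and 15 reads) and 2.70 (1.23 to 6.55; 26 and 9 reads), lay 1000 and 1600 bp after the TSS. Without *Cdc27*, the values of the 52 genes beside the TSS were 1.82 (1.51 to 2.21) and 1.64 (1.4 to 1.92). The IgG reads also rose at the TSS, both at these genes and at all genes.

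**Figure D4:**
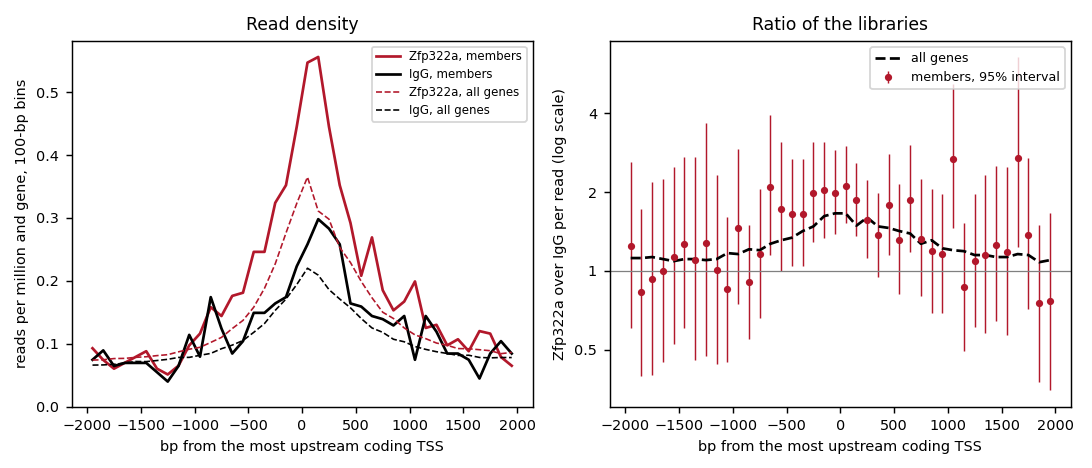
Left, reads per gene in bins of 100 bp, scaled to the library total, against the distance in bp from the most upstream coding TSS, for the 52 genes (solid) and all genes evaluated (dashed), Zfp322a in red and IgG in black. Right, the ratio of the libraries in the same bins on a log axis, with 95% counting intervals for the 52 genes; both libraries rise at the TSS, and the ratio of the 52 genes lies above that of all genes in most bins next to it, and 2 bins farther downstream are higher still.

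Of the 52 genes, 10 had the TSS of another gene on the opposite strand within 1000 bp. Their median fold was 1.57, beside 1.52 for the other 42. A fold of 2 was reached by 3 of the 10 and 10 of the 42, beside 20.6% of all genes evaluated. Within these windows, reads cannot be assigned to one gene of a pair, which holds for *Cdc27* and *Myl4* (180 bp apart), *Anapc13* and *Cep63*, *Cdc26* and *Prpf4*, *Anapc2* and *Ssna1* (62 bp), *Anapc10* and *Abce1* (80 bp), *Anapc11* and *Thoc4* (56 bp), *Mcm7* and *Ap4m1* (184 bp), *Mcm4* and *Prkdc* (466 bp), *Cdc25b* and *Spef1* (324 bp) and *Orc3* and *Rars2*.

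The promoters of these genes, from 250 bp before to 49 bp after the TSS, held E2F-type words at 16 of 52 (30.8%), beside 11.6% of all protein-coding promoters of the same length. *Mcm6* held 5, *Mcm5* 4 and *Mcm3* and *Cdk2* 3 each. CCAAT stood in 25 (48.1%, all promoters 37.9%), the CHR word in 7 (13.5%, all 16.2%), motif 1 of the study in 6 (11.5%, all 17.8%) and motif 3 in 1, *Anapc10* (1.92%, all 1.26%). The median fold was 1.34 for the 16 genes with an E2F-type word and 1.67 for the 36 without. A site lay at 3 of the 16 and 11 of the 36, beside 16.2% of all genes evaluated. In the 300 bases around the summits of the 14 genes with a site, E2F-type words were in 4 (28.6%, 19.8% of all genes with a site) and motif 1 in 5 (35.7%, 20.6%).

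The ratio of the libraries differed by chromosome, and 6 of the 52 genes lie on chromosome 8, where far reads had the fold of 0.722. Those genes had a median fold of 1.12, beside 1.63 for the 46 elsewhere, and 0 of the 6 reached a fold of 2. All genes evaluated on that chromosome had a median of 1.02, beside 1.37 elsewhere. A fold of 2 was reached by 7.17% of all genes evaluated there and by 21.4% elsewhere. Scaled to their chromosome, *Anapc10*, *Rbl2*, *Cdt1* and *Mcm5* had 2.23, 1.77, 1.76 and 1.34. The part of the chromosome in the low values of *Cdc16* and *E2f4* was not tested beyond this scaling.

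**Figure D5:**
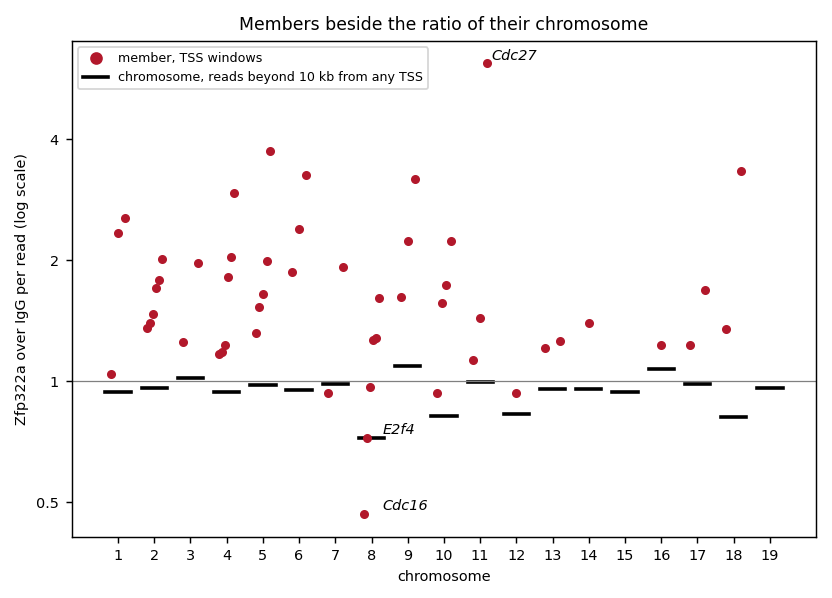
Fold at the TSS windows of each of the 52 genes (red points) by chromosome, on a log axis, with a black bar for the same ratio over the reads of that chromosome farther than 10 kb from any TSS. The bar stands at 0.722 on chromosome 8, and the lowest red points, *Cdc16* and *E2f4*, lie there.

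A wider list of 50 other cell cycle and replication genes gave 49 evaluated genes with a median fold of 1.48, of which 18 reached a fold of 2 (20.6% of all genes), 15 had an interval above 1 (16.6%), 9 had a site (16.2%) and 6 overlapped a deposited region (3.24%). Its highest genes were *Orc4*, a subunit of the origin recognition complex, with 38 and 6 reads and a fold of 5.92, *Ttk*, the spindle checkpoint kinase, with 31 and 7 reads and 4.14, and *Mcm9*, an MCM relative, with 17 and 5 reads and 3.18. Its lowest were *Dbf4*, the activator of the Cdc7 kinase, at 0.817 (14 and 16 reads), *Mnat1*, a part of the CDK-activating kinase, at 0.830 (8 and 9 reads) and *Cdkn1c* (p57) at 0.934 (22 reads in each), a value that 2 more genes of the list shared. The share of these genes past a fold of 2 lay above that of the 52, while the share with a site and the median fold lay below, and no test was made between the lists.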

How the data were processed

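ChIP-seq reads of E14 mES cells were deposited by the authors as mapped positions (BED, mm9), 1 library for the Zfp322a antibody and 1 for IgG, with the mapping quality of each read as a score. The submitters' processing notes name CASAVA 1.4, BWA and Partek 6.6; the authors called regions with Partek, and 754 distinct deposited regions were used only for overlap. No 2 reads of a library shared a 5′ end and strand.

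Reads with a mapping quality score of at least 25 were counted by their middle in merged windows of 1000 bp around every protein-coding TSS (GENCODE vM1, mm9), without chrM. Folds used library totals of those reads. Heights used 3 of the study's criteria, 300 bp fragments, a minimum of 9 reads and 3 times IgG, but not its strand filter (a Mann-Whitney test that reads of both strands lie apart), with an IgG height of 0 taken as 1 and stretches within 300 bp joined. Python 3.11.15, numpy 2.4.6, pandas 2.3.3 and scipy 1.17.1 were used, and the steps were tested on simulated data. The 52 genes, their groups and the wider list were chosen with earlier results of these data known. Every one of the 52 may be named; others only as a neighbour within 1000 bp or among the 3 highest and 3 lowest of the wider list. Alternatives changed the quality minimum, window, TSS, scaling, thresholds and fragment length.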

Additional observations from a re-analysis of the deposited data

How the results depend on the processing

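With 1 library per antibody, these values carry counting error only, and depth limits single genes to between 9 and 58 Zfp322a reads. Scaling to the median fold of all genes, which lies 0.43 above equal coverage on the log2 scale, left 6 genes at a fold of 2 (8.25% of all genes), 4 with an interval above 1 (*Cdc27*, *Anapc4*, *Cdc23* and *Cdkn2a*; 5.36% of all) and a median fold of 1.15. A threshold of 3 gave 5 genes (9.62%, all genes 5.87%) and one of 1.5 gave 27 (51.9%, all 40.6%). A window ending 100 bp after the TSS left 8 genes with an interval above 1 (13.1% of all genes) and 9 with a site (9.92% of all). Requiring 9 times the IgG height left 3 sites (*Ccnb2*, *Cdc27*, *Cdkn2a*; 2.31% of all) and 2 times gave 26 (18.6% of all genes). Exchanging the libraries, an alternative added after seeing the data, gave 0 sites, beside 0.465% of all genes. The cause of these moves was not tested beyond the changed setting itself. Of 364 folds of single genes under other settings, 362 stayed within their interval. These settings recount or rescale the same reads and most intervals were wide, so this is a weak check. *Cdc25b*, for one, stayed within its interval while its fold went from 1.36 to 3.04 within 500 bp. *Fzr1* moved to 2.80 within 500 bp and *Cdkn1a* to 3.74 at its most upstream TSS. Of the 364, 26 folds, at 18 genes, lay on the other side of 1 from the reported fold, 0 of them at a gene whose interval lay above 1. Scaling each gene to its chromosome's far reads, also added later, gave 16 genes at a fold of 2 (22.5% of all genes). The median was then 1.70, beside 1.42 for all genes. In all 8 settings *Cdc27*, *Anapc4* and *Cdkn2a* kept an interval above 1. No paired analysis was possible because each antibody has 1 library and the labels give no replicate numbers.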
